A study of Mus musculus with 9 samples.

Results

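The 7 genes described here encode the sterol regulatory element-binding proteins (SREBPs) and the machinery that releases them from membranes. They are Srebf1 and Srebf2 (the SREBPs), Scap (their escort), Insig1 and Insig2 (the retention proteins), and Mbtps1 and Mbtps2 (the proteases S1P and S2P). They were chosen by gene name from a deposited expression table of 21899 genes, and all 7 were found and passed the filter on low counts that left 12448 genes for testing. The values came from 9 RNA-seq libraries of N2a (Neuro-2a) cells, a mouse neuroblastoma line labelled as neuroblast, grown without further treatment, in 3 groups of 3 libraries. The control group carried a short hairpin RNA against luciferase (shlucif). The groups shArf1-1 and shArf1-2 carried 2 different hairpins against Arf1, a small GTPase of the Golgi apparatus, and their 6 libraries together are called Arf1-deficient. Hairpins were delivered from lentiviral plasmids with puromycin resistance, so every group, the control included, had been through viral delivery of a hairpin, and the knockdown was partial.

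SREBPs are made as precursors in the membrane of the endoplasmic reticulum (ER). Scap carries them to the Golgi apparatus when sterols are low, S1P and then S2P cut them there, and the freed N-terminal part enters the nucleus and switches on genes of lipid synthesis; when sterols are plentiful, Insig proteins hold Scap and the SREBP in the ER. The product of Srebf1 is best known for driving fatty acid synthesis and that of Srebf2 for cholesterol synthesis and uptake. RNA-seq measures the transcripts of these genes, not cleavage or nuclear protein, and in whole cultures fewer cells of a type cannot be told apart from less RNA per cell. The table gives 1 value per gene, so the transcript forms of Srebf1 were not separated.

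Totals ranged from 11182479 to 15594615 counts per library, and every member had at least 437 counts in every library. Arf1 lay between 316 and 328 FPKM (fragments per kilobase of transcript, scaled to the library total) in shlucif, between 127 and 130 in shArf1-1 and between 157 and 171 in shArf1-2. Its log2 fold change was -1.21 (adjusted p = 6.05e-08, edgeR's quasi-likelihood test). All 20 macrophage and microglia markers had a count in at least 1 shlucif library. Their summed level was 2431 to 2870 CPM (counts scaled to a common library total) in shlucif against 1.95 to 2.91 in Arf1-deficient libraries. Most of the shlucif sum came from Spp1 (19663 to 22641 counts) and Gpnmb (8201 to 10230 counts). In Arf1-deficient libraries 7 of the 20 were at 0 throughout. Of these, Ctss had 564 to 649 counts in shlucif, but some were near 0 there too, at 0 to 1, 1 to 2 and 2 to 5 counts. The 18 neuronal and neuroblast markers summed to 3257 to 3320 CPM in shlucif and 4636 to 5387 CPM in Arf1-deficient libraries. Of these 18, 13 were higher, 2 lower and 3 not past the threshold of an adjusted p under 0.05. Of all tested genes, 31.6% were higher and 32.9% lower. The 14 astrocyte, oligodendrocyte and fibroblast markers summed to 78.2 to 81.3 CPM in shlucif and 38.4 to 51.0 CPM in Arf1-deficient libraries. These shifts ran with the hairpin groups, and their part in the values below was not tested.

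Promoter sequences are shown for both SREBP genes and both Insig genes, since the transcripts within each pair changed unequally. Each runs 5′ to 3′ on the gene's own strand, and capitals mark matches on either strand to TCACNCCA (a core of the sterol regulatory element, SRE), CACGTG (E-box), CCAAT (the box bound by NF-Y) or GGGCGG (GC box). RefSeq on GRCm38.p6 gave 12 windows of 300 bases for the 7 genes, and of the 3 windows each of Srebf1 and Insig2 the one with most kinds of match, then most matches, is printed. Bases beyond the RefSeq start of the window are not printed. Where the outermost GENCODE start of the gene fell within the window, bases beyond that start were cut as well. The printed Srebf1 window belongs to an internal start and lies wholly within the gene's span, chr11:60199089-60222581, so no such cut was made there.
Srebf1: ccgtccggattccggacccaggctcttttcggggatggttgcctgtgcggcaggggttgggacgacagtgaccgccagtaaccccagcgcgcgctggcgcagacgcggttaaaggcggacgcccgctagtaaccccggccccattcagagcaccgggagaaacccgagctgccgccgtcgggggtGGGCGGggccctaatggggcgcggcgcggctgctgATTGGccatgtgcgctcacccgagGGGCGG
Srebf2: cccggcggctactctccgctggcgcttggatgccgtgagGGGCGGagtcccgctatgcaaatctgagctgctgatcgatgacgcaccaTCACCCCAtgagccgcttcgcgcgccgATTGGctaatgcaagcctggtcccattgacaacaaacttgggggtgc
Insig1: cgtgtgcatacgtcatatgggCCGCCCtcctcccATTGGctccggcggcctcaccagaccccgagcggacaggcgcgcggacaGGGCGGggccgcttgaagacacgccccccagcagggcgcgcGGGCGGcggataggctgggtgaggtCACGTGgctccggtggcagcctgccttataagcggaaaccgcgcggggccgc
Insig2: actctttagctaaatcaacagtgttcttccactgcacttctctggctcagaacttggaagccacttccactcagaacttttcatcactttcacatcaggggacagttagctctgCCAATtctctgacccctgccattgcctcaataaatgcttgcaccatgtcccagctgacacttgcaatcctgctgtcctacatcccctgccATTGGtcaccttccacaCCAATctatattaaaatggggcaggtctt
These lie at chr11:60210472-60210721 (minus strand), chr15:82147019-82147180 (plus strand), chr5:28071162-28071362 (plus strand) and chr1:121332590-121332839 (minus strand). The SRE core was found in 1 of the 12 windows, that of Srebf2. The first base of the core lay at position -162 from the RefSeq start, and a CCAAT match lay at -135. For Srebf2 the RefSeq start lies beyond the end of the printed sequence, so these positions do not count from that end. The printed Srebf1 sequence holds TCACCCGA, which differs from the core at 1 letter. Near matches were not searched for in any window. Of all 32851 windows 4.36% hold the SRE core. Its letters were shortened after these windows were seen, so the match beside that share is no test. CACGTG was in 3 of the 12 windows (Insig1 and both of Scap) against 7.15% of all windows, CCAAT in 5 of 12 against 37.4%, and GGGCGG in 9 of 12 against 35.7%. The windows of Scap share 232 bases, so their CACGTG matches are 1 site seen in both, the 3 matches are 2 distinct sites, and 1 of the GGGCGG sites is likewise counted in both windows. In the printed sequences no match shares letters with another. A match is only a match of letters, and no binding was measured.

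FPKM here divides by the length of all annotated exons of a gene together, which need not be that of the transcripts present. An order between genes depends on this. On this scale the order of levels in shlucif was Srebf2, then Insig1 and Srebf1, then Mbtps1, Scap, Insig2 and Mbtps2. Srebf2 averaged 173 ± 1.51 FPKM (SD, n = 3), above 98.3% of tested genes, and Mbtps2, the lowest, averaged 9.68 ± 0.449 FPKM, above 60.2%. Insig1 (83.9 ± 9.02) and Srebf1 (83.8 ± 2.67) did not differ beyond their spread, while every other pair of neighbours was separated in all 3 libraries. In the 6 Arf1-deficient libraries the order was Srebf2, Srebf1, Insig1, Mbtps1, Scap, Insig2 and Mbtps2, with no overlap between neighbours. Srebf1 (88.3 to 103 FPKM) then lay wholly above Insig1 (72.4 to 84.8 FPKM).

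**Figure D1:**
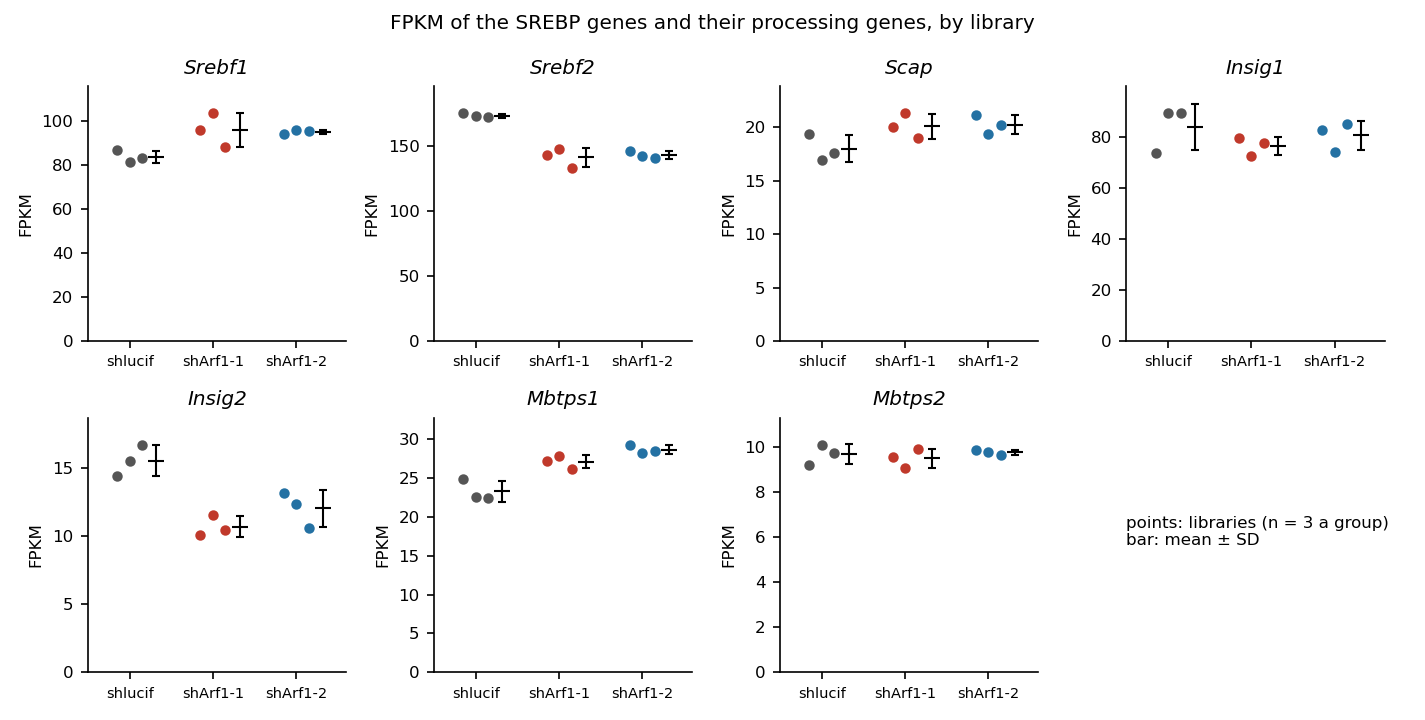
FPKM (vertical axes, from 0) of each of the 7 genes in the 3 shlucif, 3 shArf1-1 and 3 shArf1-2 libraries, with points for libraries and bars for mean ± SD. The libraries of Srebf2 and Insig2 with either Arf1 hairpin lie below all shlucif libraries, and those of Mbtps1 lie above them.

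In Arf1-deficient cells the transcripts of Srebf2 and Insig2 were lower, and that of Mbtps1 was higher, in every library of both hairpins. Srebf1 was slightly higher and Insig1 slightly lower by calls that depended on single libraries, and Scap and Mbtps2 did not pass the threshold. Counted at an adjusted p under 0.05 (Benjamini-Hochberg over all tested genes, edgeR's quasi-likelihood test on counts scaled by TMM, the trimmed mean of M-values), 5 of the 7 members differed, 2 higher and 3 lower. Of all tested genes 64.5% did so (31.6% higher and 32.9% lower), and the members' share was near that background. With scaling by library size the split was 3 higher and 2 lower. The change of 6 of the 7 members was smaller than the median absolute log2 fold change of all tested genes, 0.37.

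Srebf2, the SREBP of cholesterol synthesis, had 175.0, 173 and 172 FPKM in shlucif replicates 1 to 3, against 143, 147 and 133 in shArf1-1 and 146, 142 and 140 in shArf1-2. Every Arf1-deficient library lay below every shlucif library, and the hairpin groups overlapped. For Srebf2 the log2 fold change came to -0.35 (standard error, SE, 0.045, adjusted p = 1.33e-06), a level 0.785 times that of shlucif. Each hairpin alone gave -0.35, and the call held in all 21 alternative settings, with values from -0.38 to -0.26. A change smaller than that of Srebf2 was found in 48.2% of tested genes. The gene spans chr15:82147181-82205379 on the plus strand of GRCm38 and hosts Mir33 without shared exon bases.

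Srebf1, the SREBP of fatty acid synthesis, had 86.7, 81.4 and 83.1 FPKM in shlucif, 95.7, 103 and 88.3 in shArf1-1, and 94.0, 95.7 and 95.5 in shArf1-2. On this scale the groups did not overlap, whereas after TMM scaling shArf1-1 replicate 3 (492 CPM) fell below shlucif replicate 1 (508 CPM). The log2 fold change was 0.13 (SE 0.052, adjusted p = 0.0424). By hairpin it was 0.14 in shArf1-1, past the threshold at an adjusted p of 0.0226, and 0.11 in shArf1-2, where the adjusted p was 0.0712. The call did not hold without shlucif replicate 2 (adjusted p = 0.185), shlucif replicate 3 (0.112), shArf1-1 replicate 1 (0.0646), shArf1-1 replicate 2 (0.0941), shArf1-2 replicate 1 (0.0516) or shArf1-2 replicate 3 (0.0622). With DESeq2 the adjusted p was 0.0704. It passed in 10 of 21 alternatives, always with a positive value between 0.09 and 0.22. Srebf1 spans chr11:60199089-60222581 on the minus strand and shares 109 of its 5634 exon bases with Rai1, a gene on the opposite strand at 947 to 2588 counts, and use of strand in the counting is not given in the sources used here.

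Within a library the ratio of Srebf1 to Srebf2 needs no scaling between libraries. It was 0.495, 0.472 and 0.483 in shlucif, 0.671, 0.702 and 0.663 in shArf1-1, and 0.642, 0.674 and 0.680 in shArf1-2. The lowest Arf1-deficient ratio was above the highest shlucif ratio. Srebf1 made up 32.6% ± 0.534 (SD, n = 3) of the summed FPKM of both genes in shlucif and 40.2% ± 0.703 (SD, n = 6) in Arf1-deficient libraries. The sum itself was 254 to 262 FPKM in shlucif and 222 to 251 in Arf1-deficient libraries, so the pair together was lower, without overlap.

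**Figure D2:**
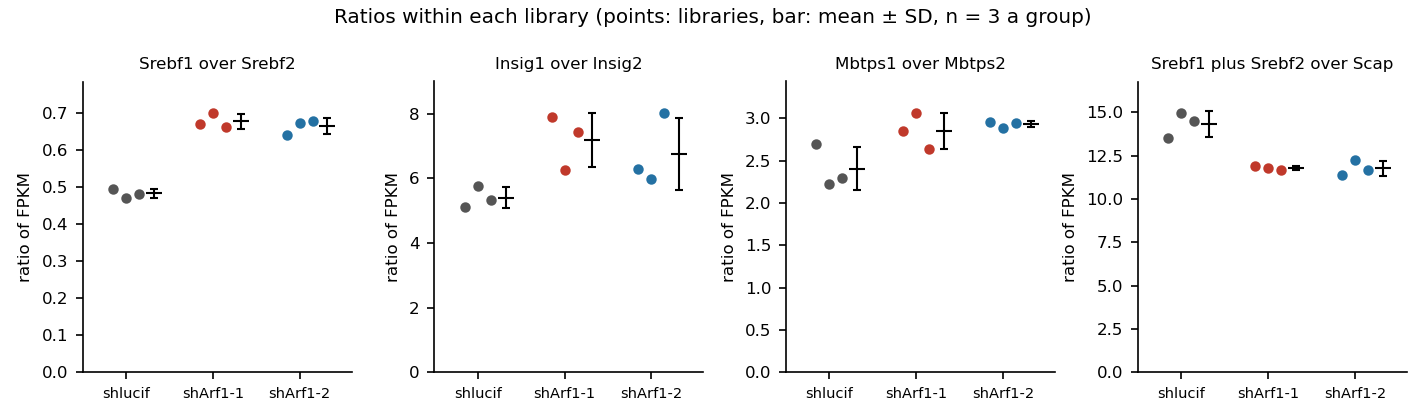
Ratios of FPKM within each library (vertical axes, from 0) for both SREBPs, both Insigs, both proteases, and the summed SREBPs over Scap, with points for libraries and bars for mean ± SD (n = 3 a group). The ratio of Srebf1 to Srebf2 lies at 0.472 to 0.495 in shlucif and at 0.642 to 0.702 in the 6 Arf1-deficient libraries.

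Scap, the sterol-sensing escort, had 19.4, 17.0 and 17.6 FPKM in shlucif, 19.998, 21.3 and 19.0 in shArf1-1, and 21.2, 19.4 and 20.2 in shArf1-2. The groups overlapped, since shlucif replicate 1 lay above shArf1-1 replicate 3. The log2 fold change was 0.10 (95% interval -0.02 to 0.22, adjusted p = 0.147), and each hairpin alone gave 0.10. Without shlucif replicate 1 the value was 0.16 and passed the threshold (adjusted p = 0.0406), as it did in 6 of 21 alternatives in all. The summed SREBP level over that of Scap was 13.5 to 14.97 in shlucif and 11.4 to 12.2 in Arf1-deficient libraries, without overlap. Scap spans chr9:110333288-110384950 on the plus strand and shares 985 exon bases with the unclassified locus 5830462I19Rik on the opposite strand.

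Insig2, one of the ER proteins that retain Scap, showed the largest change of the 7 genes. It had 14.4, 15.5 and 16.7 FPKM in shlucif, 10.1, 11.6 and 10.4 in shArf1-1, and 13.2, 12.4 and 10.6 in shArf1-2. All 6 Arf1-deficient libraries lay below the lowest shlucif library. Its change on the log2 scale was -0.51 (SE 0.085, adjusted p = 3.06e-05), a level 0.700 times that of shlucif, and the hairpins gave -0.60 (shArf1-1, adjusted p = 1.72e-07) and -0.44 (shArf1-2, adjusted p = 2.51e-05). The call held in all 21 alternatives, with values from -0.58 to -0.42. Insig2 is at chr1:121304353-121332589 on the minus strand.

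Insig1, the paralogue that is itself a classical SREBP target, had 73.5, 89.1 and 89.1 FPKM in shlucif, 79.3, 72.4 and 77.5 in shArf1-1, and 82.7, 73.8 and 84.8 in shArf1-2. The shlucif libraries were spread widely, replicate 1 lay well below the others, and the groups overlapped. Insig1 changed by -0.16 on the log2 scale (SE 0.064, adjusted p = 0.0378), and the hairpins gave -0.19 (shArf1-1, adjusted p = 0.0165) and -0.13 (shArf1-2, adjusted p = 0.0908). The call did not hold without shlucif replicate 2 (adjusted p = 0.179), shlucif replicate 3 (0.218), shArf1-1 replicate 2 (0.0608), shArf1-1 replicate 3 (0.0503) or shArf1-2 replicate 2 (0.0662). Scaling by library size in place of TMM gave -0.10 (adjusted p = 0.199). It passed in 12 of 21 alternatives, always with a negative value between -0.24 and -0.09. Insig1 is at chr5:28071363-28078662 on the plus strand.

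The ratio of Insig1 to Insig2 was 5.11, 5.75 and 5.34 in shlucif, 7.89, 6.26 and 7.43 in shArf1-1, and 6.28, 5.97 and 8.03 in shArf1-2. It was higher in all Arf1-deficient libraries, by a margin that was small for shArf1-2 replicate 2. The 2 Insig transcripts together came to 87.9 to 106 FPKM in shlucif and 84.0 to 95.9 FPKM in Arf1-deficient libraries, and these ranges overlapped. Insig1 provided most of that sum in every library.

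Mbtps1, which encodes S1P, the protease that makes the first cut, had 24.8, 22.5 and 22.4 FPKM in shlucif, 27.2, 27.8 and 26.1 in shArf1-1, and 29.2, 28.2 and 28.4 in shArf1-2. Every Arf1-deficient library was above every shlucif library, although after TMM scaling shArf1-1 replicate 3 and shlucif replicate 1 met at 272 CPM. S1P transcripts changed by 0.20 on the log2 scale (SE 0.053, adjusted p = 0.00301), and the hairpins gave 0.16 (shArf1-1, adjusted p = 0.0070) and 0.23 (shArf1-2, adjusted p = 0.000306). The call held in 20 of 21 alternatives and was lost with a correction for gene length (0.11, adjusted p = 0.109). Mbtps1, at chr8:119508156-119558735 on the minus strand, is the longest of the 7 in exon bases, 10539. In shArf1-1 alone it was lost without shlucif replicate 2 (0.13, adjusted p = 0.0523).

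Mbtps2, which encodes S2P, the protease that makes the second cut within the membrane, had 9.21, 10.1 and 9.74 FPKM in shlucif, 9.54, 9.06 and 9.91 in shArf1-1, and 9.88, 9.76 and 9.67 in shArf1-2. The groups overlapped almost fully. The log2 fold change was -0.07 (95% interval -0.18 to 0.04, adjusted p = 0.281), and it passed the threshold in 3 of 21 alternatives, those that corrected for gene length or GC content (-0.15 to -0.21). The sign of the value for shArf1-2 alone, -0.06, turned to 0.01 with scaling by library size. Mbtps2, at chrX:157535371-157598715 on the minus strand, shares 2867 exon bases with Yy2 on the same strand, which was listed at 0 counts in all 9 libraries. The ratio of Mbtps1 to Mbtps2 was 2.23 to 2.69 in shlucif and 2.63 to 3.07 in Arf1-deficient libraries, and these ranges overlapped.

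After TMM scaling 3 of the 7 members, Srebf2, Insig2 and Mbtps1, had no overlap between Arf1-deficient and control libraries. The same held for 58.1% of all tested genes. For Mbtps1 the nearest libraries were almost equal, at 271.96 CPM in shArf1-1 replicate 3 and 271.93 CPM in shlucif replicate 1.

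**Figure D3:**
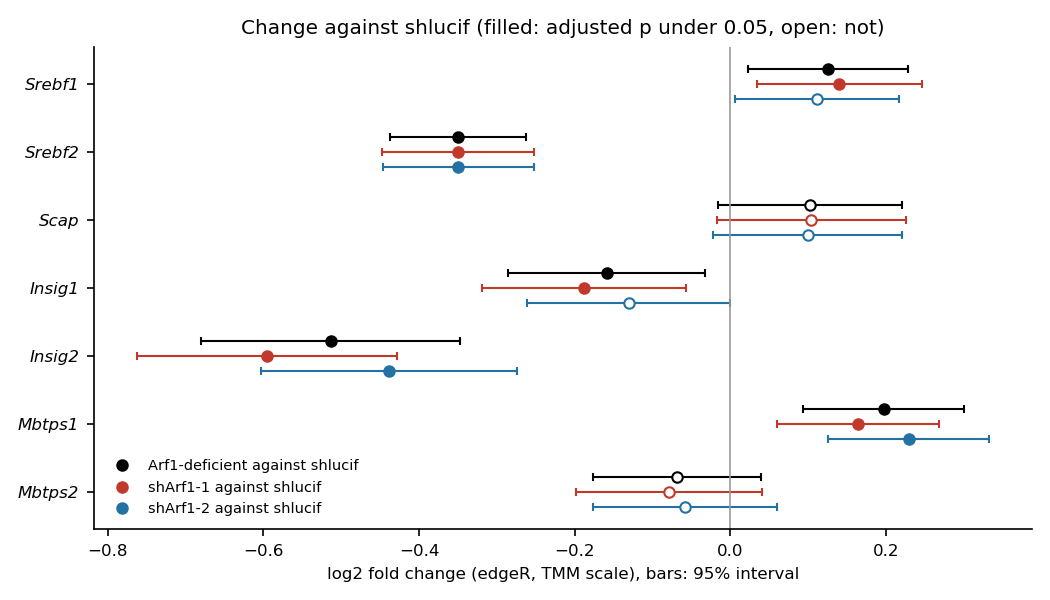
Log2 fold change against shlucif (horizontal axis, edgeR on the TMM scale) for each gene, with 95% intervals, for all 6 Arf1-deficient libraries (black), shArf1-1 (red) and shArf1-2 (blue); filled points have an adjusted p under 0.05. Srebf2 and Insig2 lie left of 0 and Mbtps1 right of 0 for both hairpins, and the open points of Scap and Mbtps2 have intervals that include 0.

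Hairpin by hairpin, shArf1-1 libraries differed in 5 of the 7 members, 2 higher and 3 lower, where 67.5% of tested genes differed (33.1% higher and 34.4% lower). With shArf1-2, 3 of the 7 passed, 1 higher and 2 lower, where 63.4% of tested genes did (30.9% higher and 32.6% lower). Both comparisons use the same shlucif libraries. The count for shArf1-1 was 2 without shlucif replicate 2, 3 without shlucif replicate 3 and 3 without shArf1-1 replicate 2, and that for shArf1-2 was 6 without shlucif replicate 1. The count over both hairpins was 3 without shlucif replicate 2, shlucif replicate 3 or shArf1-1 replicate 2. Compared directly, shArf1-2 and shArf1-1 differed in 0 of the 7 members by edgeR (0 at an unadjusted p under 0.05, and 0 by DESeq2 and by limma), where 14.4% of tested genes differed. The largest of these differences was that of Insig2, 0.16 on the log2 scale (95% interval -0.01 to 0.33, adjusted p = 0.245), and Srebf2 differed by 0.00 (95% interval -0.10 to 0.10).

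**Figure D4:**
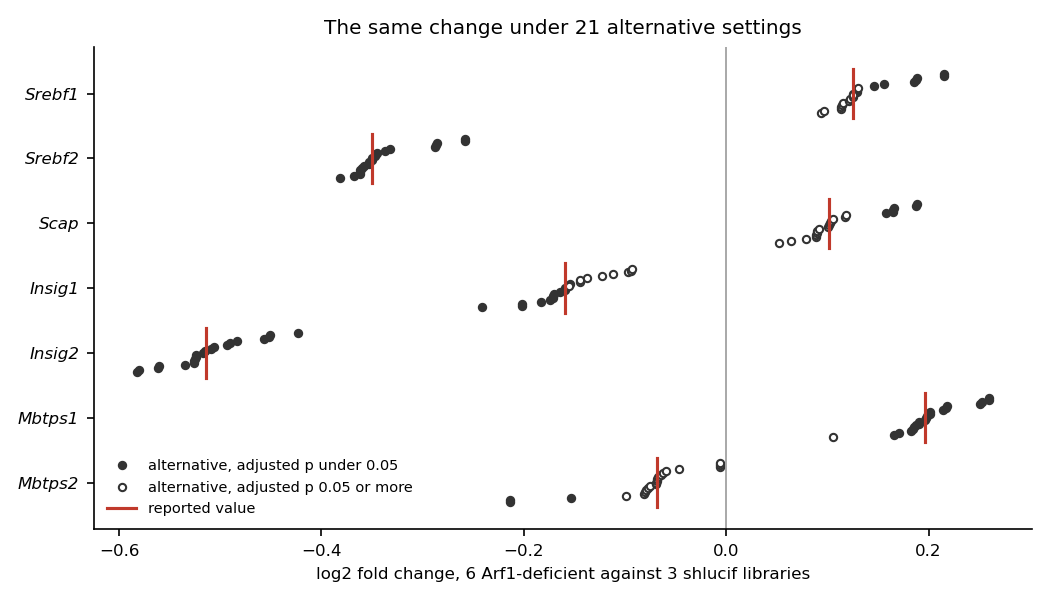
Log2 fold change of each gene in 6 Arf1-deficient against 3 shlucif libraries (horizontal axis) under 21 alternative settings (points, filled where the adjusted p is under 0.05), with the reported value as a red line. The points of Srebf2 and Insig2 are all filled and left of 0, while those of Srebf1 and Insig1 are mixed.

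The genes whose profiles over the 9 libraries were nearest to each member, by root mean square difference of log2 CPM centred on the shlucif mean over 10237 genes, were as follows. Mars1 and Soga1 were nearest to Srebf1 (0.031 for each), Nmt1 and Grk6 to Srebf2 (0.023 for each), and Rtcb and Gipc1 to Scap (0.030 and 0.032). Psenen and Tomm20 were nearest to Insig1 (0.064 and 0.066), and 2610001J05Rik and Ric1 to Insig2 (0.071 and 0.072). Acly, the ATP citrate lyase that supplies acetyl-CoA for lipid synthesis, and Rgs19 were nearest to Mbtps1 (0.027 and 0.031), and 4930402H24Rik and Azi2 to Mbtps2 (0.035 and 0.036).

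The known targets of the SREBPs and the genes around the pathway were read from written lists, each beside the 31.6% of tested genes that were higher and the 32.9% that were lower. Of 16 fatty acid synthesis targets 15 were tested, with 10 higher, 5 lower and a median log2 fold change of 0.37, against 0.00 over all tested genes. Fasn, the fatty acid synthase, rose from 53.7 ± 3.40 to 110 ± 10.1 FPKM (SD, n = 3 and 6) and had the largest change, 0.97 (adjusted p = 1.62e-09). Elovl6, which lengthens fatty acids, Acaca, which makes malonyl-CoA, and the desaturases Scd2 and Fads2 rose by 0.95, 0.67, 0.64 and 0.62. By hairpin the counts were 10 higher and 5 lower for shArf1-1 and 10 and 4 for shArf1-2.

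Of 23 cholesterol synthesis and uptake targets 22 were tested, with 10 higher, 5 lower, 7 not past the threshold and a median of 0.17. Hsd17b7, Mvk, Acat2 and Nsdhl, enzymes of the pathway, rose by 1.01, 0.79, 0.62 and 0.60. The number lower was 3 without shlucif replicate 1 and 2 without shlucif replicate 3. By hairpin, 12 were higher and 7 lower with shArf1-1, where 33.1% and 34.4% of all tested genes were. With shArf1-2, 10 were higher and 2 lower, where 30.9% and 32.6% were. Compared directly, 4 of the 22 differed between the hairpins, beside 14.4% of all tested genes. The 4 that differed directly, named after their values were seen, were Fdps (-1.08 with shArf1-1 and -0.08 with shArf1-2), Mvd (-0.41 and -0.07), Hmgcs1 (-0.44 and -0.16) and Lss (-0.19 and 0.05).

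Of 26 other regulators of SREBP processing and turnover, all tested, 15 were higher, 4 lower and 7 not past the threshold, with a median of 0.20. Lpin1, a phosphatidate phosphatase that also restrains nuclear SREBP, fell by 1.79 on the log2 scale, from 21.8 ± 0.394 to 6.60 ± 1.69 FPKM (adjusted p = 4.86e-05), with -2.15 for shArf1-1 and -1.50 for shArf1-2. Paqr3, a Golgi protein that binds Scap, stood at -1.38 with shArf1-1 (adjusted p = 2.99e-12) and -0.41 with shArf1-2 (adjusted p = 0.00173), so that the pooled -0.81 (adjusted p = 0.0191) describes neither hairpin. Ubxn8, Sirt1 and Rnf145, which act in ER-associated degradation, deacetylation and ubiquitination, rose by 1.47, 1.19 and 0.60, Ubxn8 by 1.78 with shArf1-1 and 1.10 with shArf1-2. The number lower was 2 without shlucif replicate 1. By hairpin, 17 were higher and 5 lower with shArf1-1 and 13 higher and 4 lower with shArf1-2. Compared directly, 8 of the 26 differed between the hairpins, Lpin1, Paqr3 and Ubxn8 among them, beside 14.4% of all tested genes.

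Of 19 genes listed as cofactors and regulators of SREBP transcription 17 were tested, with 2 higher, 11 lower and 4 not past the threshold, and a median of -0.33. The list also holds Abca1, Abcg1 and Mylip of the liver X receptor system, which are not themselves SREBP cofactors. Each of them was lower and is part of that count and median. Bhlhe40, a transcriptional repressor, fell by 1.82, and Abca1, Rxra and Mylip, a transporter, a nuclear receptor and a ubiquitin ligase of the liver X receptor system, fell by 1.49, 0.92 and 0.74. Nfyc, a subunit of NF-Y, rose by 1.68. Each hairpin gave 2 higher and 10 lower, and 3 of the 17 differed between them, beside 14.4% of all tested genes. Rxra stood at -1.21 for shArf1-1 and -0.68 for shArf1-2, and Abca1 at -1.28 and -1.71. Abca1 and Abcg1 are also strongly expressed in macrophages, and the marker levels given above ran with the same groups. Any link between the marker levels and these falls was not tested. Of 9 other substrates of S1P and S2P, 8 were tested, with 3 lower and 5 not past the threshold, and a median of -0.15. Creb3l2 and Atf6, membrane-bound transcription factors cut by the same proteases, fell by 0.80 (adjusted p = 1.56e-09) and 0.28 (adjusted p = 0.000133). With shArf1-1 alone 2 were higher and 3 lower, and with shArf1-2 alone 4 were lower. Gnptab, named after its values were seen, was called in opposite directions, 0.20 with shArf1-1 (adjusted p = 0.0345) and -0.29 with shArf1-2 (adjusted p = 0.00297), and the hairpins differed directly, by -0.49 for shArf1-2 minus shArf1-1 (adjusted p = 8.17e-05). Creb3, also named after its values were seen, was higher with shArf1-1 (0.24, adjusted p = 0.0483) and at -0.06 with shArf1-2 (adjusted p = 0.631), with a direct difference that did not pass (adjusted p = 0.0528).

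**Figure D5:**
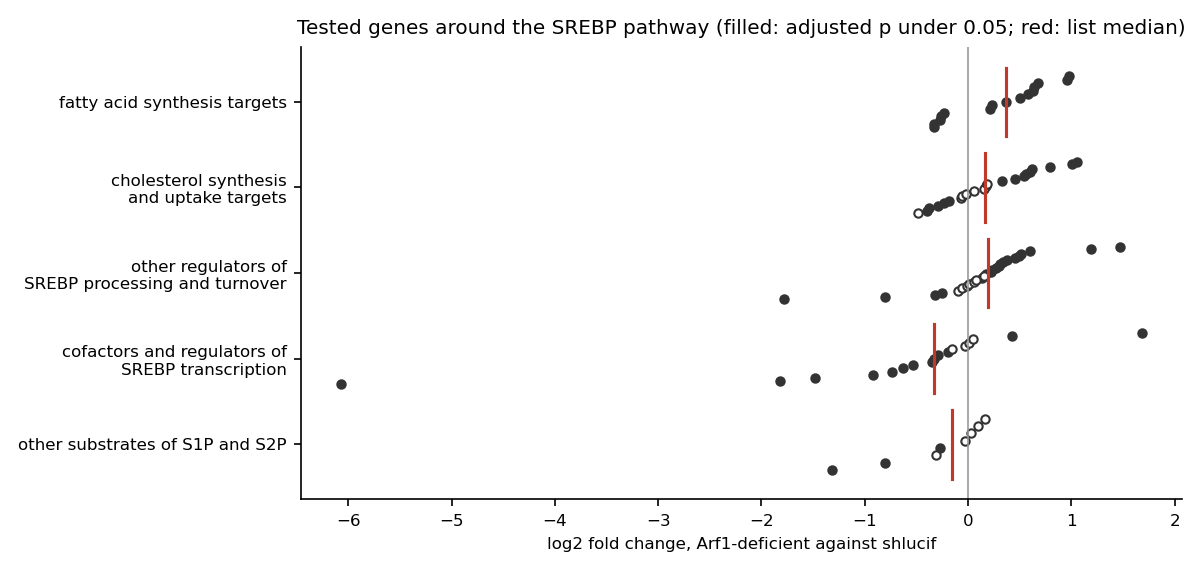
Log2 fold change in Arf1-deficient against shlucif libraries (horizontal axis) of every tested gene of 5 lists around the SREBP pathway, with filled points for an adjusted p under 0.05 and a red line at each list's median. The medians run from 0.37 for fatty acid synthesis targets to -0.33 for cofactors and regulators of transcription, and the point farthest left is Abcg1, named after its value was seen, which had 44 to 61 counts in shlucif and 0 to 3 in Arf1-deficient libraries.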

How the data were processed

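Polyadenylated RNA of 9 N2a libraries was sequenced by the study. The authors deposited whole-number read counts per gene, not normalized, and FPKM values, which per the file headers stand beside them; FPKM recomputed from count, listed length and library total agreed within 1% for every value of 10 or more counts. The submitters' processing notes name mm10; aligner, counter and strand use are not given in the sources used here. Table coordinates matched GRCm38 starts for 514 of 21795 genes, so coordinates come from GENCODE M21 by identifier. Of 21907 rows, 8 without a gene identifier were dropped. Columns named shArf2 were read as shArf1-2, because the study uses that heading for Arf1-deficient libraries.

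Counts were filtered by filterByExpr, scaled by TMM and fitted with edgeR 4.0.16 (robust glmQLFit, glmQLFTest; R 4.3.3) in 2 groups (6 against 3 libraries) or 3 groups. Genes passed at an adjusted p under 0.05 (Benjamini-Hochberg). Intervals are 1.96 standard errors either side, to 95%. The fits were tested on simulated data. Replicates may be technical, since no source says they were separate cultures, and p-values measure the spread between these libraries only. No pair of libraries agreed within sampling noise (chi-square per gene 3.06 to 8.94). Alternatives were limma 3.58.1 on FPKM on the log2 scale with 1 or 0.1 added, DESeq2 1.42.0, scaling by upper quartile or library size, no filter, at least 10 counts in every library, a replicate block, corrections for gene length and GC content, the average of the hairpin contrasts, the 6 compared libraries alone, and leaving out each library.

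The members and lists were chosen with earlier results of these data known. Named were all members, from each list up to 5 genes past the threshold with the largest absolute change and at least 5 CPM in the higher group, the 2 nearest profiles per member, Arf1, and genes overlapping a member; results of some genes are not reported here, though counts include them. The letters TCACNCCA were shortened after the windows were seen. No protein sequences were used here.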

Additional observations from a re-analysis of the deposited data

Results flagged for a closer look

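Arf1 and the list genes given here differed between the hairpins (adjusted p under 0.05, edgeR), as did 14.4% of all tested genes. On the log2 scale, shArf1-2 minus shArf1-1, the difference was 0.34 for Arf1. It was 0.28 for Hmgcs1, 0.34 for Mvd, 1.00 for Fdps and 0.24 for Lss among cholesterol synthesis and uptake targets. Among other regulators of processing it was -0.19 for Ube2g2, -0.68 for Ubxn8, 0.98 for Paqr3, -0.24 for Pgrmc1, 0.13 for Hsp90ab1, -0.28 for Gsk3b and 0.65 for Lpin1. It was 0.53 for Rxra, -0.20 for Nfya and -0.43 for Abca1 in the list of cofactors and regulators. Among protease substrates it was -0.17 for Atf6b and -0.49 for Gnptab. None of the 7 members was among them.

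A single library stood apart from the other Arf1-deficient libraries for Elovl6 (90.9 CPM in shArf1-1 replicate 3), Mvk (24.7 CPM in shArf1-2 replicate 3) and Atf6 (150.2 CPM in shArf1-2 replicate 1), among 29 genes examined by Dixon's criterion, which chance meets in about 1 in 20 groups.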

How the results depend on the processing

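Srebf2 and Insig2 kept their direction and stayed past the threshold in all 21 alternatives of each comparison with shlucif, and no call of any member reversed. The number of members past the threshold over both hairpins was 3 with the gene length correction and 3 to 6 when 1 library was left out. For shArf1-1 it was 2 to 6 with a library left out. For shArf1-2 it was 5 with library size scaling, 5 with log2(FPKM + 1), 5 with log2(FPKM + 0.1), 6 with the GC content correction, 6 with the replicate block and GC content correction together, and 3 to 6 with a library left out. Fatty acid synthesis targets lower numbered 3 on either FPKM scale. Cholesterol synthesis and uptake targets lower numbered 2 with library size scaling and on either FPKM scale, 3 with the GC content correction, 3 with the block and GC content correction together, and 2 to 6 with a library left out; other regulators of processing lower numbered 2 to 4 with a library left out. In these cases the cause was not tested.

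Replicate numbers did not pair the libraries (mean correlation of deviations 0.007, from -0.082 to 0.094 over 9 same-numbered pairs). With the replicate block, 4 members passed over both hairpins, Srebf1 having an adjusted p of 0.0568, while 5 passed for shArf1-1, 3 for shArf1-2 and 0 between the hairpins. The lists then gave 10 higher and 5 lower, 11 and 4, 15 and 4, 2 and 11, and 0 and 3, in the order of the report. With 3 libraries a group and the reported settings, the changes of Scap and Mbtps2 could not be told from 0. Over both hairpins they passed the threshold in 6 and 3 of 21 alternatives.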
